A study of Mus musculus with 13 samples.

Results

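Fatty acid oxidation genes were followed in mouse hippocampus as a list of 40 genes chosen by function, of which 37 could be measured among 19938 genes tested on the array. The list was chosen with earlier results of these data known. For each gene, the probe sets that the array annotation assigns to that gene alone were taken, and the one with the highest mean over all 13 arrays stood for the gene. The synthetase genes Acsl1 and Acsl3 have no such probe set in the annotation, and the one probe set of Cpt1b is shared with the predicted gene Gm44502, so these 3 genes were not measured. Hadhb alone had a choice between 2 probe sets.

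The 13 mice, of C57BL/6J background and 1 to 2 months old, all ate standard chow, and each gave 1 whole hippocampus sample for 1 array. Experiment 1 held 4 wild-type mice and 3 heterozygous Kmt2d+/βGeo mice without injections, and experiment 2 held 3 wild-type and 3 Kmt2d+/βGeo mice that received 3 injections of saline per day as controls of another experiment. The mice were female, apart from wild-type replicate 3 of experiment 1, of unknown sex. βGeo is a gene trap in Kmt2d, which encodes a histone H3 lysine 4 methyltransferase, and mice with 1 trapped copy serve as a model of Kabuki syndrome; the trap is carried by every cell, and no cell type was isolated. In such bulk tissue, fewer cells of a type and less RNA per cell cannot be told apart.

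In fatty acid oxidation, an acyl-CoA synthetase first activates the fatty acid, and the carnitine shuttle (Cpt1 enzymes, the carrier Slc25a20 and Cpt2) moves it into the mitochondrion. There, repeated rounds of dehydrogenation, hydration, dehydrogenation and thiolysis release acetyl-CoA, and the electron transfer flavoprotein passes electrons to the respiratory chain. Peroxisomes shorten very long and branched chains and hand the products on as carnitine esters, and the nuclear receptor PPARα induces many of these genes in liver during fasting or a ketogenic diet. The brain relies mainly on glucose, and most of its fatty acid oxidation is ascribed to astrocytes.

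Promoter sequences are shown for 4 of the genes described below: Crot and Etfa, which had the lowest unadjusted p-values between genotypes over both experiments, Cpt1a, the rate-controlling step of the shuttle, and Pdk4, a classic PPARα target. Each is the 250 bases before the start given in RefSeq (GRCm38.p6), written 5′ to 3′ on the gene's strand, with every motif match in capitals. Crot lies at chr5:8997147-8997396 and Etfa at chr9:55512244-55512493, both on the minus strand. Cpt1a lies at chr19:3323051-3323300 on the plus strand, within the annotated span of Cpt1a itself, which begins at 3322326, and Pdk4 at chr6:5496279-5496528 on the minus strand.
Crot: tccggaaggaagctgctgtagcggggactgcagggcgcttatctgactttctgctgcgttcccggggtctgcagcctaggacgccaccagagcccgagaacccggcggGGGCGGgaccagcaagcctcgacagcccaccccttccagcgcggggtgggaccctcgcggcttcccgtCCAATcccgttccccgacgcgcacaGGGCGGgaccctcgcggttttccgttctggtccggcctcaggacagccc
Etfa: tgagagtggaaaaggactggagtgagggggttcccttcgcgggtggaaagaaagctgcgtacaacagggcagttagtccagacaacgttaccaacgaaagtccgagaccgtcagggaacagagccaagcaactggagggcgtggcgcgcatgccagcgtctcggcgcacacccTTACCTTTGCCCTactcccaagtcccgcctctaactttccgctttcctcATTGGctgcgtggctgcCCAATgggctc
Cpt1a: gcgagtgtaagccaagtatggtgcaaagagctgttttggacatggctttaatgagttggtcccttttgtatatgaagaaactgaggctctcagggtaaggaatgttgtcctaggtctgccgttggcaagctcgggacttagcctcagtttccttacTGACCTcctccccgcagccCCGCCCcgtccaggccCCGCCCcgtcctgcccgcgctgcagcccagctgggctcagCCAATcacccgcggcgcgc
Pdk4: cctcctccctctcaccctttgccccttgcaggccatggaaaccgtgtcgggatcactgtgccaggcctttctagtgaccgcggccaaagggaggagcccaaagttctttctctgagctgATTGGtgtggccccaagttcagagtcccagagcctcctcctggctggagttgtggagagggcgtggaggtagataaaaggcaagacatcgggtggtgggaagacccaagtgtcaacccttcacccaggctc

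The motifs searched, on both strands, were GGGCGG (the GC box), CCAAT, the nuclear receptor core motif AGGTCA, the same core preceded by TCA (TCAAGGTCA) as bound by estrogen-related receptors, and the direct repeat AGGTCANAGGTCA bound by PPAR and RXR pairs, which was allowed 2 mismatches. As written, the last 2 contain the core motif, but a direct repeat matched with mismatches need not hold it, and that of Etfa does not. Crot holds 2 GC boxes and 1 CCAAT, Cpt1a 2 GC boxes, 1 CCAAT and a core motif whose match (TGACCT, on the opposite strand) begins 94 bases before the start, Etfa 2 CCAAT matches and a direct repeat with 2 mismatches (TTACCTTTGCCCT) 77 bases before the start, and Pdk4 a single CCAAT. RefSeq entries were found for 34 of the 40 genes, with 37 windows. The GC box was present in 73.0% of these windows against 32.7% of all 32851 windows, and CCAAT in 54.1% against 33.8%. The core motif was present in 16.2% of the windows (Acadm, Acadvl, Acsl6, Cpt1a, Cpt1c and Echs1) against 14.0% of all windows. TCAAGGTCA was found in 1 window, that of Acsl6 (2.70% against 0.387%), and the direct repeat in those of Echs1 and Etfa (5.41% against 3.24%). These matches describe letters, not bound sites.

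The experiments differed more than the genotypes. The first principal component accounted for 83.6% of the variance and split the arrays by experiment, and array medians were 6.74 to 6.90 log2 units in experiment 1 and 7.04 to 7.08 in experiment 2. Of the 2 probe sets of Kmt2d, 10432294 was lower in heterozygous mice, at 7.33 ± 0.15 (SD, n = 3) against 7.88 ± 0.01 (SD, n = 4) in experiment 1 and 8.02 ± 0.15 against 8.53 ± 0.22 (SD, n = 3 each) in experiment 2 (exact permutation within experiments, two-sided p = 0.00143, the smallest that 700 regroupings allow). The other, 10432298, was at 9.91 against 9.82 and at 9.69 against 9.63 in heterozygous and wild-type mice (exact permutation p = 0.301). In experiment 1 the wild-type values of both probe sets hold ties, so that the SD of 0.01 for 10432294 understates the spread. All 12 hippocampal neuron markers, Prox1, Calb1 and Neurod6 among them, were at 7.25 log2 units or more on every array. Wild-type replicate 2 of experiment 1 stood apart: its mean of 8 striatal neuron markers lay 2.39 log2 units above the mean of its experiment, and 6 of the 37 fatty acid oxidation genes lay above theirs, the fewest of any array.

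The first comparison asked whether the list differed with genotype in a model of both experiments. None of the 37 genes passed an adjusted p of 0.05 in limma, as none of all 19938 genes did (0%), and 2 of 37, Crot and Etfa, had an unadjusted p under 0.05, where 5.25% of all genes did. Heterozygous minus wild-type differences ran from -0.17 to 0.26 log2 units with a median of -0.02 (all genes 0.002), and their 95% intervals lay between -0.35 and 0.40. Of the 37 genes, 24 were below 0, against 49.0% of all genes. The median size of the difference, without its sign, was 0.062 log2 units for the list and 0.056 for all genes.

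**Figure D1:**
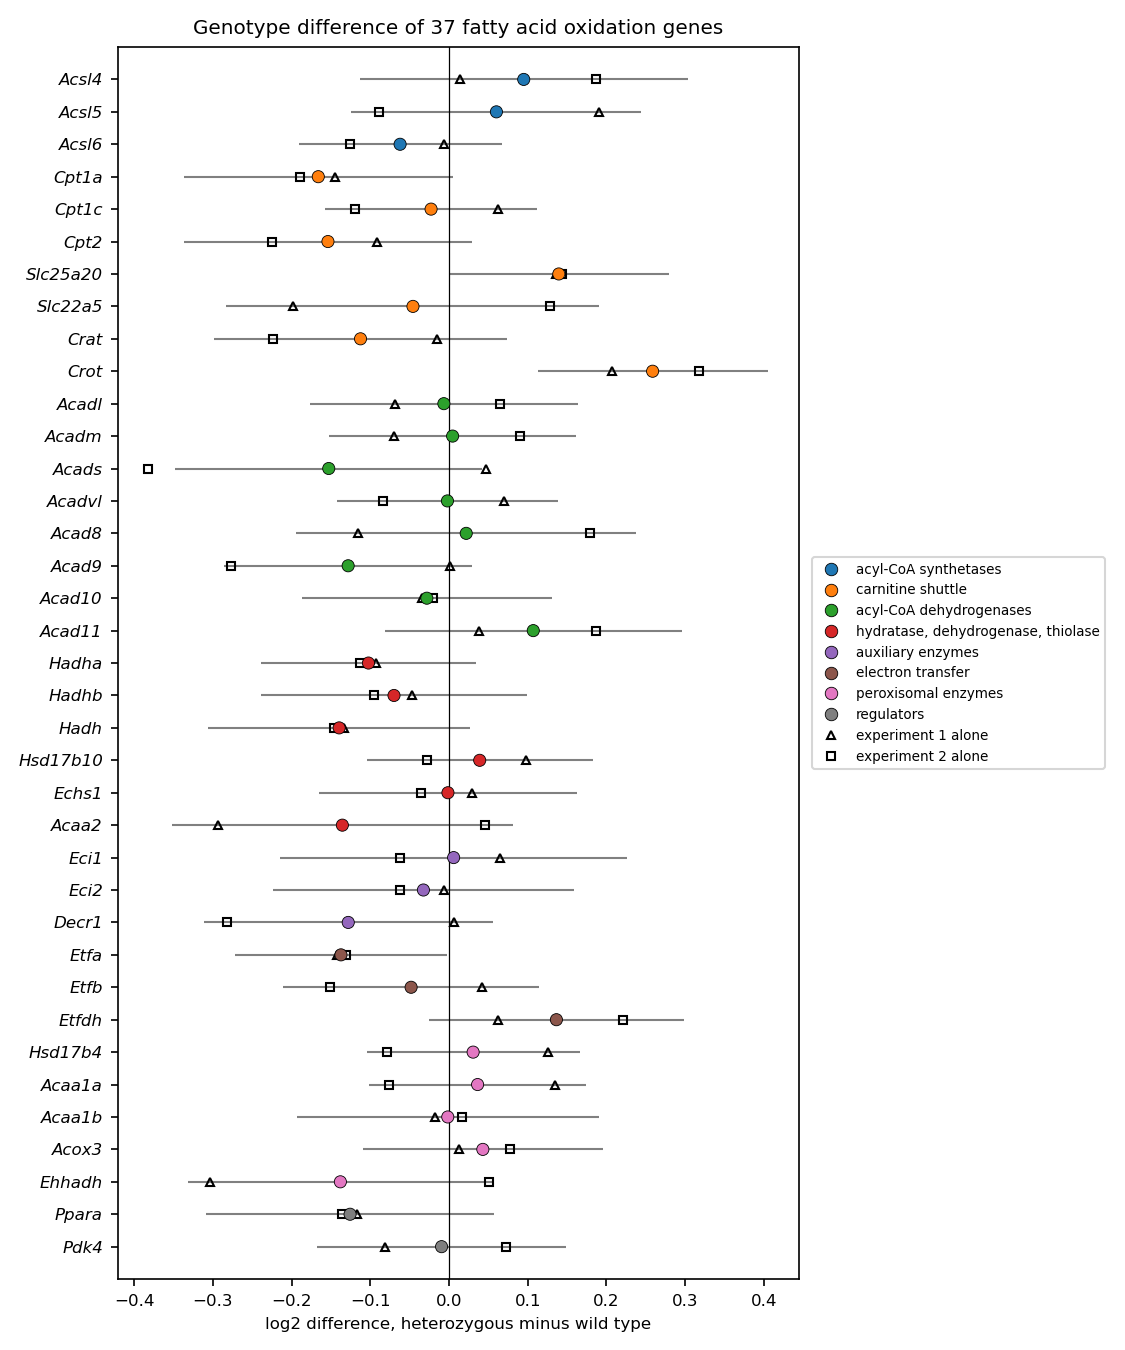
Heterozygous minus wild-type difference in log2 units (x axis) of each of the 37 measured genes (y axis, coloured by role). Filled circles give the value over both experiments with its 95% interval from limma, open triangles experiment 1 and open squares experiment 2. No gene passed the adjusted threshold in any of the 3 comparisons, and Crot lay highest over both experiments at 0.26.

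The carnitine shuttle genes were counted as a group together with the carnitine transporter Slc22a5, Crat and Crot. This group held both the highest and the lowest difference of the list, Crot at 0.26 ± 0.07 (SE) and Cpt1a at -0.17 ± 0.08. Crot encodes the peroxisomal carnitine octanoyltransferase, which makes the carnitine esters in which shortened chains leave the peroxisome. In wild-type mice of experiment 1 Crot was at 9.17, 9.01, 9.01 and 9.01 log2 units and in heterozygous mice at 9.25, 9.29 and 9.24. In experiment 2 it was at 8.56, 8.32 and 8.41 in wild-type mice and at 8.56, 8.72 and 8.96 in heterozygous mice. Heterozygous arrays were higher than wild-type arrays without overlap in both experiments, in experiment 2 by a margin that vanishes at 2 decimals; 0.135% of all genes (27 genes) had that order and 0.186% the opposite one. The 1.20-fold difference (95% interval 0.11 to 0.40 log2 units, unadjusted p = 0.00173) had a limma adjusted p of 0.615, and its exact permutation p was 0.00429. Wild-type replicates 2, 3 and 4 of experiment 1 were tied, which the summarisation step can produce, so that their spread is understated.

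Cpt1a, which forms acylcarnitines at the outer mitochondrial membrane, was at 9.45, 9.10, 9.55 and 9.53 in wild-type and 9.31, 9.31 and 9.17 in heterozygous mice of experiment 1. In experiment 2 it was at 8.65, 8.96 and 8.64 in wild-type and at 8.60, 8.61 and 8.47 in heterozygous mice. The groups overlapped in experiment 1, through wild-type replicate 2, and not in experiment 2 (limma adjusted p = 0.934; 95% interval -0.34 to 0.005; exact permutation p = 0.0757). Cpt1c, the brain isoform of the endoplasmic reticulum, differed by -0.02 ± 0.06, with values of 10.71, 10.79, 10.82 and 10.76 against 10.88, 10.76 and 10.85 in experiment 1, and of 10.53, 10.71 and 10.66 against 10.57, 10.61 and 10.35 in experiment 2. Its groups overlapped in both experiments, and its sign turned under some settings.

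Slc25a20, the carnitine-acylcarnitine carrier, differed by 0.14 ± 0.07 (exact permutation p = 0.0329, limma adjusted p = 0.934). It was at 8.10, 8.14, 8.39 and 8.09 in wild-type against 8.42, 8.26 and 8.27 in heterozygous mice in experiment 1, and at 8.23, 8.22 and 8.01 against 8.26, 8.38 and 8.26 in experiment 2. The groups were apart in experiment 2, and in experiment 1 wild-type replicate 3 reached into the heterozygous range. Cpt2, which returns the acyl group to CoA inside the mitochondrion, was at 7.70, 7.53, 7.75 and 7.54 against 7.58, 7.58 and 7.46 in experiment 1 and at 7.62, 8.15 and 7.58 against 7.46, 7.64 and 7.56 in experiment 2, a difference of -0.15 ± 0.09 with overlap in both. Of the 7 genes measured in the shuttle group, 5 were below 0, with a median of -0.05.

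None of the 3 genes of electron transfer passed, and 2 of them were below 0. Etfa, a subunit of the flavoprotein, was at 8.87, 8.81, 8.83 and 8.78 in wild-type and 8.73, 8.64 and 8.67 in heterozygous mice of experiment 1, and at 10.38, 10.26 and 10.02 against 10.04, 10.22 and 10.01 in experiment 2. Its groups were apart in experiment 1 and overlapped in experiment 2 (-0.14 ± 0.06, limma adjusted p = 0.934, exact permutation p = 0.05). Etfdh, which passes the electrons to ubiquinone, was at 8.82, 8.82, 8.91 and 8.82 against 8.91, 8.89 and 8.92 and then at 8.67, 8.32 and 8.77 against 8.82, 8.63 and 8.97, with overlap in both experiments and a difference of 0.14 ± 0.08.

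In the other roles, the 3 synthetases had 1 gene below 0 and a median of 0.06, and the 8 acyl-CoA dehydrogenases had 5 and a median of -0.004. Of the 6 genes of the hydratase, dehydrogenase and thiolase steps, 5 were below 0, with a median of -0.09. Hadhb differed by -0.05 in experiment 1 and -0.10 in experiment 2, and its other probe set by -0.05 and 0.01. Of the 3 auxiliary enzymes, which handle unsaturated chains, 2 were below 0, and of the 5 peroxisomal enzymes also 2. The regulators were PPARα itself and Pdk4, a kinase that shuts pyruvate dehydrogenase and so spares glucose. Ppara was at 7.20, 6.86, 7.03 and 6.96 against 7.02, 6.84 and 6.83 in experiment 1 and at 6.71, 6.59 and 6.83 against 6.83, 6.27 and 6.63 in experiment 2, a difference of -0.13 ± 0.09 with overlap in both. Pdk4 was at 8.41, 8.48, 8.46 and 8.28 against 8.31, 8.47 and 8.19, and at 6.73, 6.65 and 6.55 against 6.91, 6.51 and 6.72, a difference of -0.009 ± 0.07 whose sign turned under some settings.

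**Figure D2:**
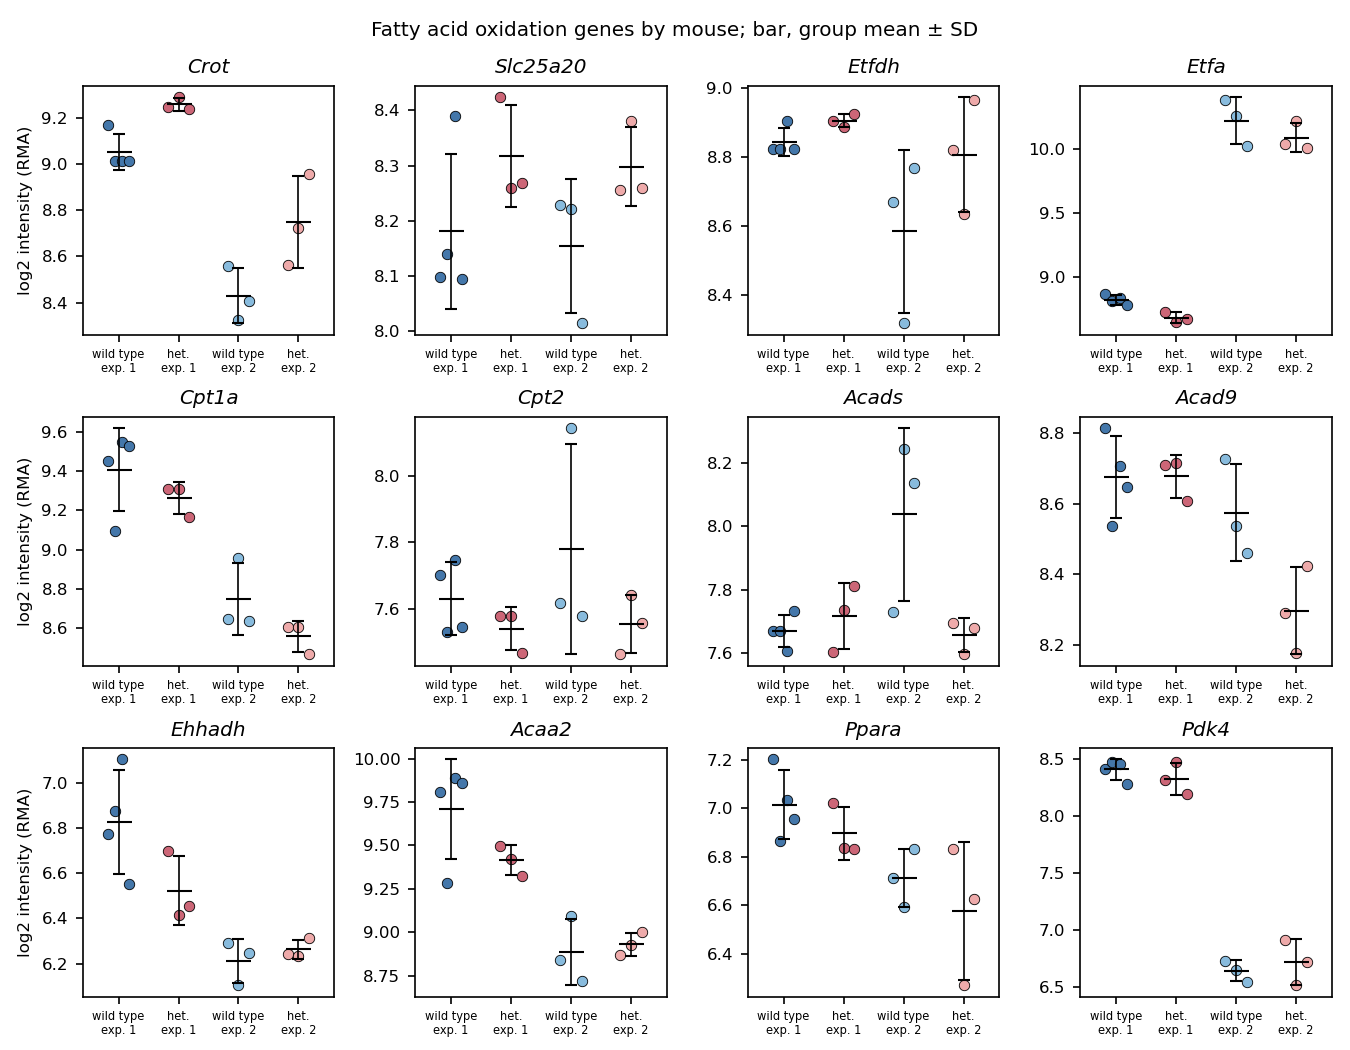
Log2 intensity on each of the 13 arrays (y axis, points) for 12 genes described in the text, by genotype and experiment (x axis), with bars at the group mean ± SD. Crot values of heterozygous mice lie above those of wild-type mice in both experiments, and Pdk4 separates the experiments and not the genotypes.

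Within experiment 1, in mice without injections, 0 of 37 genes passed in limma (0.0201% of all genes, 4 genes, did) and 3 of 37 had an unadjusted p under 0.05 (3.50% of all genes). The median difference was -0.006 log2 units (all genes 0.015), the range -0.30 to 0.21, and 19 genes were below 0 (42.4% of all genes). Ehhadh, the bifunctional enzyme of peroxisomal oxidation, was at 6.77, 6.88, 7.1 and 6.55 in wild-type and 6.7, 6.42 and 6.45 in heterozygous mice, a difference of -0.30 ± 0.11. Acaa2, the mitochondrial thiolase of medium chains, was at 9.81, 9.28, 9.89 and 9.86 against 9.50, 9.42 and 9.33, a difference of -0.29 ± 0.13. Both overlapped, Acaa2 only through wild-type replicate 2, and without that array Acaa2 differed by -0.44 and 25 of the 37 genes were below 0. That count was the highest of those with each array left out in turn, which ran from 16 to 25. The median of all genes without replicate 2 was 0.010. Etfa lay at -0.14 ± 0.09. On the upper side were Crot at 0.21 ± 0.10, the synthetase Acsl5 at 0.19 ± 0.11 (8.97, 8.54, 8.87 and 8.90 against 9.14, 8.93 and 8.96) and the peroxisomal thiolase Acaa1a at 0.14 ± 0.08 (8.13, 8.15, 8.14 and 8.15 against 8.27, 8.26 and 8.30). In experiment 2 their groups overlapped, with Acsl5 at 8.40, 8.57 and 8.26 in wild-type against 8.32, 8.46 and 8.19 in heterozygous mice and Acaa1a at 8.52, 8.89 and 8.72 against 8.65, 8.68 and 8.57, so that neither lay on the upper side there. Every limma adjusted p of the list was 1 in experiment 1. Heterozygous values were all below wild-type values for Etfa (2.75% of all genes) and all above for Crot, Hsd17b10 and Acaa1a (4.47% of all genes).

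Some cell type lists were apart between the genotypes in experiment 1, and others overlapped. The mean of 10 ependymal markers, as a deviation from the experiment's mean, was 0.06 to 0.28 in wild-type and -0.35 to -0.14 in heterozygous mice, and that of 9 oligodendrocyte markers 0.05 to 0.26 and -0.43 to -0.05. The 12 hippocampal neuron markers went the other way, at -0.27 to 0.04 and 0.06 to 0.13. The 11 choroid plexus markers overlapped only through wild-type replicate 2, at -0.69 to 0.87 and -0.70 to -0.36. The 12 astrocyte markers, at -0.20 to 0.08 and -0.04 to 0.07, overlapped, as did the mean of the 37 fatty acid oxidation genes, at -0.12 to 0.08 and -0.04 to 0.02. The microglial (-0.05 to 0.07 and -0.04 to 0.08) and endothelial lists (-0.19 to 0.09 and -0.06 to 0.06) overlapped too. So did the striatal (-0.40 to 2.39 and -0.51 to -0.31) and blood cell lists (-0.03 to 0.07 and -0.05 to 0.03). How often such list means would be apart by chance was not tested. The part of cell composition in the values of single genes was not tested. In experiment 2 the ependymal list was at -0.13 to 0.10 and 0.02 to 0.08, the oligodendrocyte list at -0.57 to 0.26 and -0.07 to 0.19, and the fatty acid oxidation list at -0.02 to 0.07 and -0.05 to 0.004, all overlapping. The neuron list, at -0.17 to 0.13 and -0.06 to 0.12, overlapped there too. So did the choroid plexus list, at -1.09 to 0.59 and -0.32 to 0.82, and the remaining cell type lists.

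**Figure D3:**
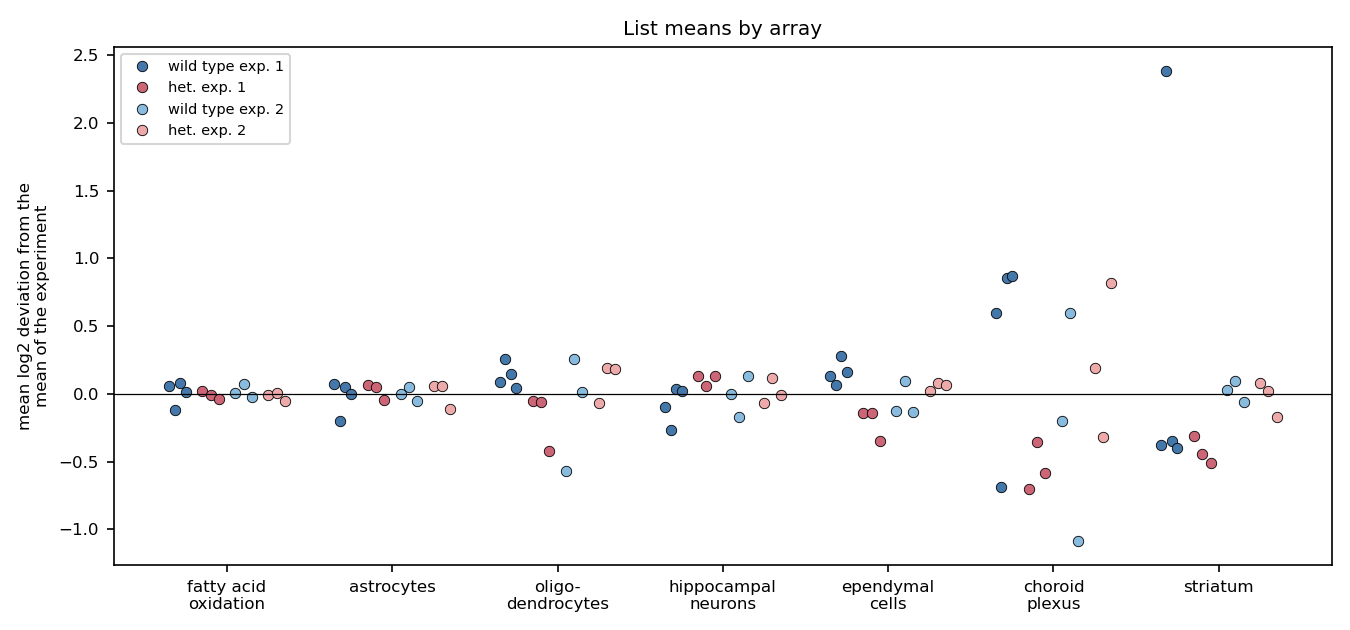
Mean log2 level of each gene list on each array, as a deviation from the mean of its experiment (y axis), by genotype and experiment. The fatty acid oxidation genes lie within -0.12 and 0.08 on every array. The ependymal, oligodendrocyte and hippocampal neuron lists separate the genotypes in experiment 1, where the other lists shown overlap, and all lists shown overlap in experiment 2.

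Within experiment 2, in saline-injected mice, 0 of 37 genes passed in limma (0% of all genes), and 4 of 37 had an unadjusted p under 0.05 (10.2% of all genes). The median was -0.06 (all genes -0.01), the range -0.38 to 0.32, and 23 genes were below 0 (52.9% of all genes). Acads, the dehydrogenase of short chains, was at 7.73, 8.25 and 8.14 in wild-type and at 7.69, 7.60 and 7.68 in heterozygous mice, a difference of -0.38 ± 0.11 (1.30-fold lower, limma adjusted p = 0.347). In experiment 1 Acads was at 7.67, 7.67, 7.61 and 7.73 against 7.60, 7.74 and 7.81, so that wild-type replicates 2 and 3 of experiment 2 stood above all other arrays. Acad9, a dehydrogenase that also serves complex I assembly, was at 8.73, 8.54 and 8.46 against 8.29, 8.18 and 8.43, a difference of -0.28 ± 0.10 (adjusted p = 0.395). Decr1, the dienoyl-CoA reductase for unsaturated chains, was at 8.0, 7.59 and 7.58 against 7.65, 7.43 and 7.24 (-0.28 ± 0.12, adjusted p = 0.442), after 7.67, 7.60, 7.79 and 7.66 against 7.72, 7.68 and 7.66 in experiment 1. Acad9 was apart and Decr1 overlapped in experiment 2. On the upper side, Crot stood at 0.32 ± 0.10 (adjusted p = 0.372), Etfdh at 0.22 ± 0.11 and Slc25a20 at 0.14 ± 0.10. Heterozygous values were all below wild-type values for Cpt1a, Acads and Acad9 (5.17% of all genes) and all above for Slc25a20 and Crot (4.32% of all genes).

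The list kept no common sign between the experiments. The genotype difference had the same sign in both for 17 of 37 genes (48.2% of all genes), below 0 in both for 11 (21.8%) and above 0 in both for 6 (26.4%). The difference of the genotype effects, tested as an interaction in limma, passed for 0 of 37 genes (0% of all genes), with 2 at an unadjusted p under 0.05 (6.53% of all genes), Acads and Ehhadh, and it was below 0 for 21 (55.6% of all genes). Experiment 2 minus experiment 1, the genotype difference of Acads was -0.43 ± 0.15 (adjusted p = 0.737), of Acad9 -0.28 ± 0.14 and of Decr1 -0.29 ± 0.16. Those of Ehhadh (0.35 ± 0.17, adjusted p = 0.761), Acaa2 (0.34 ± 0.19) and the carnitine transporter Slc22a5 (0.33 ± 0.22) lay above 0. Slc22a5 was at 7.99, 7.78, 8.09 and 8.21 against 7.66, 8.0 and 7.79 in experiment 1 and at 6.64, 7.26 and 6.7 against 7.11, 6.79 and 7.08 in experiment 2. Acad9 had been at 8.81, 8.54, 8.71 and 8.65 against 8.71, 8.71 and 8.61 in experiment 1. In experiment 2 Ehhadh was at 6.29, 6.10 and 6.24 against 6.24, 6.24 and 6.31, and Acaa2 at 8.84, 9.09 and 8.72 against 8.87, 8.92 and 9.0, with the genotypes overlapping.

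Between the experiments the list differed widely. Of the 37 genes, 30 passed in limma (81.1%), where 77.2% of all genes did; 9 were higher (41.8% of all genes) and 21 lower (35.4%) in experiment 2. Differences ran from -1.77 to 1.41 log2 units with a median of -0.23 (all genes 0.07), 24 were below 0 (44.9% of all genes), and their median size was 0.467 against 0.386 for all genes. The labels name them as separate experiments that differ in saline injections; any difference in array run or normalisation cannot be told apart from these. For 16 genes all arrays of experiment 2 lay below those of experiment 1 (27.5% of all genes) and for 8 all lay above (25.4%). Relative levels also depended on scaling: with each array centred on its median, which lowered the median of all genes by 0.24, 5 members were higher and 24 lower, and higher calls were 28.3% of the calls over all genes in place of 54.2%. Marker levels moved too: 11 of 12 astrocyte markers were lower in experiment 2 and 1 higher (median -0.71), with list means of 10.26 to 10.54 log2 units in experiment 1 and 9.63 to 9.80 in experiment 2, and 10 of 12 hippocampal neuron markers were lower and 1 higher (median -0.91). Endothelial (6 of 9 lower, 2 higher), oligodendrocyte (5 of 9 lower, 1 higher) and choroid plexus markers (6 of 11 lower, 0 higher) were also more often lower. Microglial markers were split, with 4 of 9 lower and 3 higher. Ependymal (5 of 10 higher, 3 lower) and blood cell markers (3 of 4 higher, 0 lower) were more often higher. Of 8 striatal markers, 1 was lower and 0 higher. The part of these markers in the result was not tested.

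**Figure D4:**
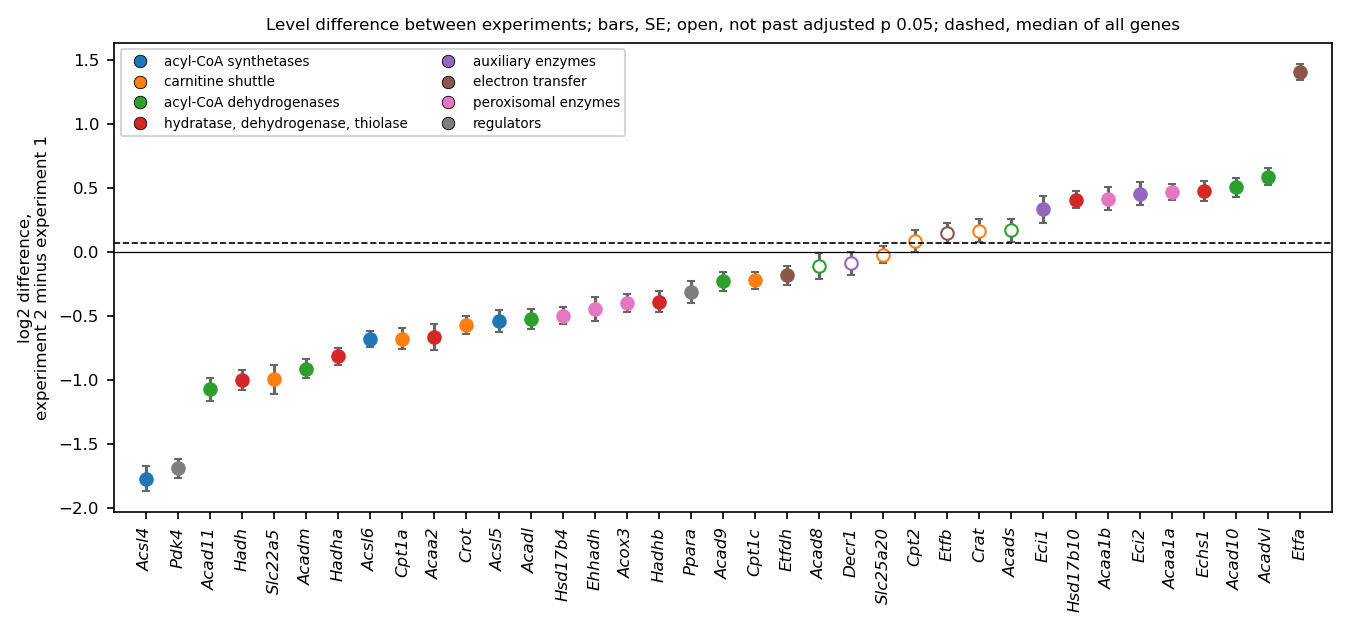
Experiment 2 minus experiment 1 difference in log2 units (y axis) of each of the 37 measured genes (x axis, in rising order and coloured by role), with bars for the SE from limma, open circles for genes that did not pass and a dashed line at the median of all genes. Etfa lies farthest to the right at 1.41, and Acsl4 and Pdk4 farthest to the left at -1.77 and -1.69.

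All 3 synthetases were lower in experiment 2, Acsl4 by the most. Acsl4, which prefers arachidonic acid, was at 10.74, 10.45, 10.63 and 10.74 in wild-type and 10.64, 10.67 and 10.66 in heterozygous mice of experiment 1, and at 8.95, 8.77 and 8.65 and then 8.63, 8.94 and 9.36 in experiment 2, a 3.41-fold lower level (-1.77 ± 0.10, adjusted p = 9.83e-11). Acsl6 lay at -0.68 and Acsl5 at -0.54. In the shuttle group, the transporter Slc22a5 (-1.0), Cpt1a (-0.68 ± 0.08, limma adjusted p = 1.1e-06), Crot (-0.57) and Cpt1c (-0.22 ± 0.06, limma adjusted p = 0.0044) were lower. Cpt2 (0.09), Slc25a20 (-0.02) and Crat (0.17), the exchanger of short acyl groups, did not pass.

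The dehydrogenases were split. Acad11 (9.08, 8.75, 9.17 and 9.08 in wild-type and 9.19, 9.01 and 8.98 in heterozygous mice of experiment 1; 7.98, 7.80 and 7.86 and then 7.87, 7.97 and 8.37 in experiment 2) was 2.10-fold lower, at -1.07 ± 0.09 (adjusted p = 1.44e-08). The medium-chain enzyme Acadm (-0.91), the long-chain enzyme Acadl (-0.52) and Acad9 (-0.23) were also lower. The very-long-chain enzyme Acadvl was 1.5-fold higher (0.59 ± 0.07, adjusted p = 5.59e-07), at 8.12, 7.75, 7.97 and 7.87 and 7.99, 8.03 and 7.97 in experiment 1 and at 8.62, 8.59 and 8.55 and 8.58, 8.54 and 8.39 in experiment 2. Acad10 was 1.42-fold higher (0.50 ± 0.07, adjusted p = 1.36e-05), from 5.65, 6.00, 5.79 and 5.79 and 5.61, 5.74 and 5.97 to 6.22, 6.25 and 6.44 and 6.31, 6.37 and 6.17. Its probe set is among the dimmest 30% of genes, and under quantile normalization its difference was 0.14 and did not pass (adjusted p = 0.0685). Acads (0.17) and Acad8 (-0.11), which serves valine breakdown, did not pass.

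In the later steps of the cycle, both subunits of the trifunctional protein, Hadha (-0.82) and Hadhb (-0.39), the dehydrogenase Hadh (-1.0) and the thiolase Acaa2 (-0.67) were lower, while the hydratase Echs1 (0.47) and Hsd17b10 (0.41) were higher. The isomerases Eci1 (0.33) and Eci2 (0.45) were higher, and Decr1 (-0.09) did not pass. In electron transfer, Etfa was 2.65-fold higher in experiment 2 (1.41 ± 0.06, adjusted p = 8.76e-12), Etfdh was lower (-0.18, adjusted p = 0.0375), a call lost under quantile normalization, and Etfb (0.15) did not pass. Among peroxisomal enzymes the thiolases Acaa1a (0.47) and Acaa1b (0.42) were higher, the latter with a probe set among the dimmest 30% of genes, and Hsd17b4 (-0.50), Ehhadh (-0.45) and Acox3 (-0.40) were lower. The regulators were both lower, Pdk4 3.23-fold (-1.69 ± 0.07, adjusted p = 6.22e-12) and Ppara at -0.31 ± 0.09 (adjusted p = 0.00377). Median centring took the calls of Acaa1b, Eci1, Eci2 and Hsd17b10, and quantile normalization those of Acaa1b, Acad10, Acad9, Cpt1c, Etfdh and Hadhb, with the sign of Etfdh turned. Centring kept 26 of the 30 calls and 29 members passed under it. Quantile normalization kept 24 and 26 members passed, so that rescaling also added calls.

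Of 108 further genes of lipid metabolism in 6 lists, 104 were measured, and 0 passed in limma in any genotype comparison; 53 were below 0 over both experiments, with a median of -0.004. The 2 genes of lowest unadjusted p in the list of fatty acid synthesis were the desaturase Scd1, at -0.26 ± 0.08 (adjusted p = 0.795), and the malic enzyme Me1, at 0.17 ± 0.06 (adjusted p = 0.826). In the PPAR list they were Angptl4, an inhibitor of lipoprotein lipase, at -0.23 ± 0.07 (adjusted p = 0.795), and the receptor Rxrg at -0.61 ± 0.30. Rxrg is also high in striatum, and its 4 wild-type arrays of experiment 1 had an SD of 1.12. The mean of the 20 PPAR genes, as a deviation from its experiment's mean, was -0.0004 to 0.027 in wild-type and -0.041 to -0.006 in heterozygous mice of experiment 1, and 0.015 to 0.076 and -0.078 to -0.007 in experiment 2, with no overlap in either. Of the 6 lists only this list was apart, and the means of all the others overlapped in both experiments. How often a list mean would be apart by chance was not tested. In 2 checks chosen after seeing these values, the groups of experiment 1 overlapped without Rxrg (-0.082 to 0.025 and 0.002 to 0.024) and with each array centred on its median (-0.057 to 0.051 and -0.087 to 0.064), and those of experiment 2 stayed apart in both. By gene, most of the list went the other way in experiment 1, with 13 of 20 above 0, 7 below (42.4% of all genes) and a median of 0.04. In experiment 2, 15 of 20 were below 0 (52.9% of all genes), with a median of -0.09. The remaining pairs lay within -0.17 and 0.14: the sterol carrier Scp2 (0.14) and Phyh (0.10) of the peroxisome, Etfrf1 (-0.15) and Acat1 (0.13) of the mitochondrion, Fabp3 (0.10) and Acss2 (0.11) of uptake and activation, and Prkab1 (-0.17) and the acetyl-CoA carboxylase Acaca (0.12) of malonyl-CoA and AMPK control. Between the experiments 82 of the 104 passed, 22 higher and 60 lower in experiment 2, with a median of -0.27; among all genes 77.2% passed, 41.8% higher and 35.4% lower. The lower calls were 13 of 18 genes of synthesis (1 was higher), 7 of 10 of malonyl-CoA and AMPK control (0 higher), 14 of 20 other mitochondrial genes (5 higher), 8 of 15 other peroxisomal genes (2 higher), 11 of 21 of uptake, binding and activation (8 higher) and 7 of 20 of the PPAR list (6 higher).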

How the data were processed

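The series holds 13 Affymetrix Mouse Gene 1.0 ST arrays in 4 groups. The deposited table gives log2 intensities made by the authors with RMA in oligo, per the submitters' processing notes, which corrects background, equalises arrays and combines probes by median polish. The sources used here do not give tool versions, the genome build or whether RMA took all arrays at once. Median polish can tie arrays exactly, as in 5 of the measured members, and a tied group's SD understates the spread. Of 35556 probe sets, with values from 2.53 to 14.1, the platform annotation names 23410, 21789 of them with 1 gene and 1621 with several; 12146 stayed unnamed. No dim probe set was removed.

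limma 3.58.1 (lmFit and eBayes, R 4.3.3) was fitted to all 19938 genes. Genotype over both experiments and the experiment difference came from a model of genotype and experiment, and the within-experiment effects and their difference from a model of the 4 groups. All were two-sided, with Benjamini-Hochberg adjustment over all genes and a threshold of 0.05. The mice are separate animals, and their number limits the precision. Exact permutation shuffled genotype within experiments. Members and lists were chosen with earlier results of these data known. Values on every array are given for the 3 members of lowest p in each direction and genotype comparison, the 3 that differed most in each direction between experiments, and the Cpt1 genes, Ppara and Pdk4; of each further list the 2 genes of lowest p are named. The limma step was tested on simulated data. Alternatives were array weights, centring, quantile normalization, a trended robust prior, a filter on the dimmest 30% of genes, every probe set, probe set means, each experiment alone, a replicate block, 3 arrays left out together, and each array left out in turn. The 3 arrays, taken as standing apart from the rest, were wild-type replicates 2 and 3 of experiment 1 and heterozygous replicate 3 of experiment 2. Deviations from group means in same-numbered mice of the 2 genotypes had correlations of 0.22, -0.09 and -0.23 in experiment 1. In experiment 2 they were -0.21, -0.04 and -0.12. No consistent correlation was thus seen, but in groups this small it cannot settle whether the replicate numbers pair the samples.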

Additional observations from a re-analysis of the deposited data

Results flagged for a closer look

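In 7 of the 37 measured genes, 1 of the 4 wild-type mice of experiment 1 lay far from the other 3 by Dixon's test at the 95% level, where chance gives about 1 in 20, or 1.85 genes, and where 8.80% of all 19938 genes had such a value. Replicate 2 was the low one in 4 of them (2.67% of all genes), all of the later mitochondrial steps: Hadha at 10.09 (the others 10.28 to 10.29), Hadh at 9.57 (9.82 to 9.88), Hsd17b10 at 9.72 (9.82 to 9.84) and Acaa2 at 9.28 (9.81 to 9.89). This is the mouse whose striatal marker mean lay 2.39 above its experiment's mean, and its astrocyte marker mean was the lowest of its experiment, at -0.20; the part of either in these values was not tested. Replicate 3, whose sex is not known, was the high one for Slc25a20 at 8.39 (8.09 to 8.14) and Etfdh at 8.91 (the others 8.82). Replicate 1 was high for Crot at 9.17 (the others 9.01). In Crot and Etfdh the other 3 values were tied, which by itself puts the remaining value apart.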

How the results depend on the processing

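No member passed in any genotype comparison under any setting run, and 26 to 32 passed between the experiments (29 to 31 when each array was left out in turn). The smallest adjusted p of a member over the alternatives was 0.149 over both experiments, 0.0577 in experiment 1 (Acaa2, array weights), 0.0791 in experiment 2 and 0.327 for the difference of the effects. Members below 0 numbered 19 to 25, 16 to 25, 19 to 25 and 16 to 25 in these comparisons, a count chosen after seeing the data. With a replicate block, although same-numbered mice showed no consistent correlation, 0 members passed in the genotype comparisons and 30 between experiments, with 23 below 0 over both. Without wild-type replicate 2 of experiment 1, 48 of all genes passed in experiment 1 in place of 4, and with array weights 163. Over both experiments 21 passed with array weights in place of 0. In experiment 2, 0 passed with array weights, and 91 passed without heterozygous replicate 1 of that experiment. Over both experiments, 13 of the 37 members turned sign under at least 1 alternative, each within 0.095 log2 units of 0 in the reported fit: 10 with 3 arrays left out together, 7 with array weights, 5 with centring and up to 8 with a single array left out. Among the members named for this comparison these were Cpt1c and Pdk4. Cpt1c was at 0.024 with array weights and 0.029 with 3 arrays left out, and ran from -0.046 to 0.020 with each array left out. Pdk4 was at 0.013 with array weights, 0.000626 with centred arrays and 0.0246 with 3 arrays left out, and ran from -0.059 to 0.031. Crot ran from 0.19 to 0.29 over all settings, with adjusted p of 0.149 to 0.997. Cpt1c between the experiments was -0.05 under quantile normalization (adjusted p = 0.483). Of all calls between the experiments, 54.2% were higher, against 28.3% with centring, 41.0% with quantile normalization, 38.3% without the dimmest genes and 62.5% over every probe set.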
